A study of Homo sapiens with 15 samples.

Results

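The data described here are the levels of 9 genes of Polycomb repressive complex 2 (PRC2) and of the DNA methylation machinery in HT1080 cells, a line from a human fibrosarcoma, under KDAC inhibitors. The genes were EZH2, EZH1, SUZ12, EED, DNMT1, UHRF1, HELLS, DNMT3A and DNMT3B. They were chosen by name, with results of these data already known, from 60675 genes in the table of counts, and all 9 passed the filter on low counts that left 19535 genes to test. Since no measured value defines the set, its members have no threshold to sit inside or outside of, but their p-values are no independent evidence and only set a difference beside the spread between replicates.
RNA-seq libraries came from 5 groups of 3 biological replicates. The 6CD1m line carries the H216A substitution in the first catalytic domain of KDAC6 (encoded by HDAC6), the 6CD2m line carries H611A in its second catalytic domain, and the 8CDm line carries H143A in KDAC8 (encoded by HDAC8). 6CD1m and 6CD2m cells received 1 μM Tubastatin A, a KDAC6 inhibitor, for 2 days, and 8CDm cells received 5 μM PCI-34051, a KDAC8 inhibitor, for 2 days. WT cells received the same dose of either inhibitor for 14 days. All groups were therefore treated, and untreated cells are not analysed here. In each comparison of a mutant line with WT cells, the line and the duration of treatment (2 against 14 days) cannot be told apart, and between the inhibitors the doses differ. Where 6CD1m or 6CD2m cells are set against WT cells on PCI-34051, the inhibitor and its dose differ as well. The mutant lines were made by CRISPR/Cas9 editing, and whether each is a single clone is not given in the sources used here.

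PRC2 places methyl groups on lysine 27 of histone H3, a mark of silenced genes, through its catalytic subunit EZH2 or the related EZH1, with SUZ12 and EED as the core subunits that make the enzyme active. DNA methylation is copied after replication by DNMT1, which UHRF1 brings to newly made, half-methylated DNA, while HELLS remodels nucleosomes so that DNA can be methylated. New methylation is placed by DNMT3A and DNMT3B. EZH2, DNMT1, UHRF1 and HELLS are known as genes of dividing cells, and EZH1 as the form of the enzyme that non-dividing cells use.

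Most of these genes also shared a feature of the DNA around their start sites. Sequence was not used to choose them. The choice is still not independent of this feature, since several of them are known as genes of dividing cells. RefSeq promoter windows on GRCh38.p14, from 250 bases before to 50 bases after a start site, were found for all 9 genes (17 windows). They were searched on both strands for the E2F words TTTCCCGC, TTTCGCGC, TTTGCCGC and TTTGGCGC, for the cell cycle element TTTGAA and for CCAAT. The first window of 6 of the 9 genes, those of EZH2, EZH1, SUZ12, DNMT1, UHRF1 and HELLS, held an E2F word, against 3.33% of the first windows of 27305 genes. EED, DNMT3A and DNMT3B had none in any window. The share of all genes was not matched for GC content or kind of gene. The first windows of the 9 genes had 52.3% to 74.7% GC. CCAAT was in the first window of 6 genes (35.7% of all genes) and TTTGAA in 1, that of SUZ12 (15.4%). The windows of EZH2, UHRF1, DNMT1 and HELLS are shown because each holds an E2F word, in capitals, within 14 bases of the start site. They lie at chr7:148884242-148884541 (EZH2, minus strand), chr19:4909251-4909550 (UHRF1, plus strand), chr19:10194904-10195203 (DNMT1, minus strand) and chr10:94545538-94545837 (HELLS, plus strand), and are written from 5′ to 3′ along the gene.
EZH2: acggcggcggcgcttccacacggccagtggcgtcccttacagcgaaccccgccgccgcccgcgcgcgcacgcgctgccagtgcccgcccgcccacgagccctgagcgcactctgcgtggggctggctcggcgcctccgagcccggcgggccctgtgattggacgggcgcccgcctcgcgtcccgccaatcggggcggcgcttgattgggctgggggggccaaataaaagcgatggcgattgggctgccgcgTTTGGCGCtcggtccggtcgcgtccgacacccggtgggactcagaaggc
UHRF1: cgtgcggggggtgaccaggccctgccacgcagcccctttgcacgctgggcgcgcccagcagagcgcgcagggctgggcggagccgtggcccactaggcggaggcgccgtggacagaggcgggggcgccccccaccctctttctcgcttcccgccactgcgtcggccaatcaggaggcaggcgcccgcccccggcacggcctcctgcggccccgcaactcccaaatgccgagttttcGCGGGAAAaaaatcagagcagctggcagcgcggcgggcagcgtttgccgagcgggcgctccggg
DNMT1: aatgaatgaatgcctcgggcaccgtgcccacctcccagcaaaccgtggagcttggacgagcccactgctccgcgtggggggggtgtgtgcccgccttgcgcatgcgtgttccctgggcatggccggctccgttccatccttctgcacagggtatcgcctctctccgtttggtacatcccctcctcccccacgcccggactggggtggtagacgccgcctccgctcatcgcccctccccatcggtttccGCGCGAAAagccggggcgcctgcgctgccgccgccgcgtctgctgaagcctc
HELLS: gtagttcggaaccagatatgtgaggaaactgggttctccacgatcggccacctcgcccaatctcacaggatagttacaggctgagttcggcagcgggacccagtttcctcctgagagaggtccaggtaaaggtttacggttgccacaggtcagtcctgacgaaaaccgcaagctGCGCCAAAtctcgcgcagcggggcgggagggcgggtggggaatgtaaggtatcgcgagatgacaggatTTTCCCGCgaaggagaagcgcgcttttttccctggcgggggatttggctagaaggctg
A word in capitals is a match of letters and not a known binding site. The HELLS window held 2 of them. The words of EZH1 and SUZ12 lie further from the start site, and neither gene had a called difference with all libraries in the model. Whether these words relate to the differences between groups was not tested.

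The libraries held 10932482 to 19983741 counts on genes (median 17551907). Log2 levels correlated across genes between replicates with a Pearson r of 0.962 to 0.988. All 8 mesenchymal markers were expressed, at 29.6 to 4887 CPM (a count set against its library's TMM-scaled total), while the blood markers reached at most 0.347 CPM and the endothelial markers 2.85 CPM. Of the epithelial markers, CLDN4 gave the highest value (13.1 CPM). Fewer cells of a kind and less RNA per cell cannot be told apart in such bulk samples. Mean HDAC6 and HDAC8 levels ran from 13.1 to 30.5 and from 15.5 to 18.0 CPM over the groups, which checks no label, since the substitutions leave the genes in place. The libraries differed in how counts depended on the GC content of a gene. The GC tilt, the log2 ratio to the mean library at 40% GC minus that at 55%, ran from -0.59 to 0.04 in 6CD1m cells and from -0.54 to -0.03 in WT cells on PCI-34051, but only from 0.24 to 0.32 in 8CDm cells. This touches the 9 genes unequally, since SUZ12, EED and HELLS have 37.6% to 38.5% GC and DNMT1, UHRF1, DNMT3A and DNMT3B 54.5% to 57.6%. For the 9 genes, values with offsets that remove this tilt (GC offsets) are therefore given beside the results whose call they change. For the gene lists, counts or adjusted p-values with GC offsets are given where a count changes.

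Per kilobase of exon sequence, the DNA methylation maintenance genes were the most abundant. DNMT1 averaged 26.9 and UHRF1 22.7 CPM per kb over the 15 libraries. EZH2 (7.88), EZH1 (7.01), HELLS (6.67) and SUZ12 (6.65 CPM per kb) formed a middle range. DNMT3A (2.93), DNMT3B (2.33) and EED (2.20 CPM per kb) were the lowest. The plot of levels by library shows that EZH2 and UHRF1, the genes with the widest spread between groups, were ordered differently: 6CD2m cells were highest for EZH2 and next to lowest for UHRF1.

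**Figure D1:**
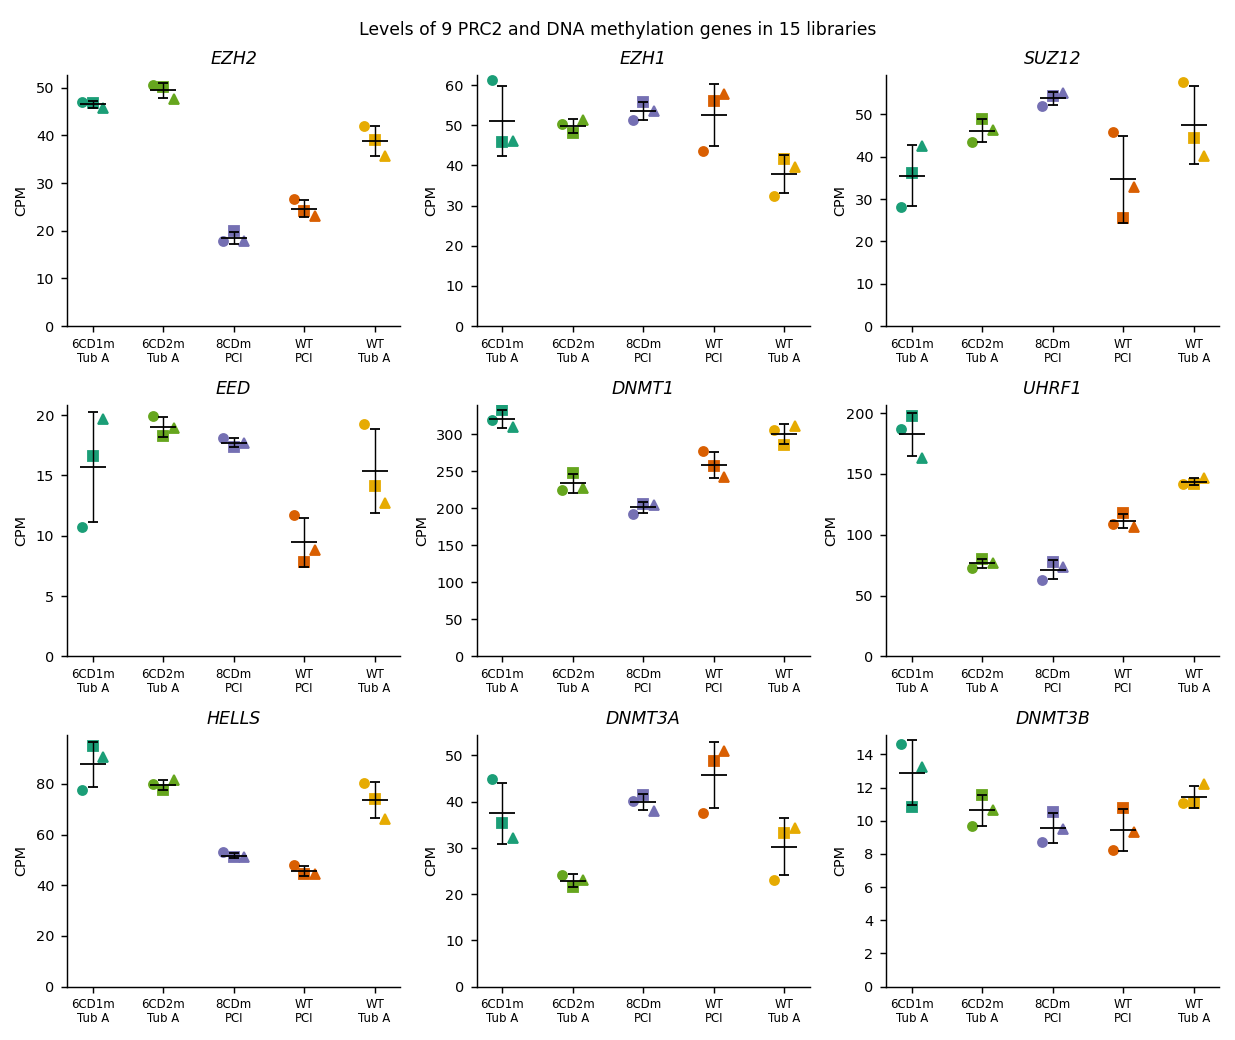
CPM (vertical axis, from 0) of the 9 genes in each library of the 5 groups, with replicates 1, 2 and 3 as circle, square and triangle and black bars for mean ± SD (n = 3). EZH2 lies between 45.7 and 50.6 CPM in the 6 libraries of 6CD1m and 6CD2m cells and between 17.8 and 20.05 CPM in 8CDm cells, whereas UHRF1 lies between 62.5 and 80.3 CPM in 6CD2m and 8CDm cells and between 163 and 197 CPM in 6CD1m cells.

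EZH2 (ENSG00000106462, chromosome 7 of GRCh38, 148807383 to 148884321), the catalytic subunit of PRC2 in dividing cells, was at 50.6, 50.2 and 47.7 CPM in 6CD2m cells and at 47.1, 46.9 and 45.7 CPM in 6CD1m cells. In 8CDm cells it was at 17.8, 20.05 and 17.8 CPM. WT cells gave 42.0, 39.0 and 35.7 CPM on Tubastatin A and 26.6, 24.2 and 23.2 CPM on PCI-34051. All libraries on Tubastatin A, mutant and WT, were above all libraries on PCI-34051, and 8CDm cells were below WT cells on the same inhibitor without overlap.
The highest group mean of EZH2 (49.5 ± 1.60 CPM, SD, n = 3) was 2.67 times the lowest (18.6 ± 1.28 CPM, n = 3). By the quasi-likelihood test of edgeR, adjusted after Benjamini and Hochberg over all genes tested, the log2 difference between 6CD2m and 8CDm cells was 1.41 (SE 0.09, adjusted p = 2.8e-08). That between 6CD1m and 8CDm cells was 1.33 (SE 0.09, edgeR adjusted p = 8.7e-08). Both passed the false discovery rate of 0.001 when any library was left out. On chromosome 7 the median protein-coding gene differed by 0.22 between 6CD2m and 8CDm cells and by 0.00 between 6CD1m and 8CDm cells. A median over the whole chromosome does not show whether a region around EZH2 differed, which was not tested. In the order of group means, the neighbours 6CD2m and 6CD1m cells (edgeR adjusted p = 0.46) and 6CD1m and WT cells on Tubastatin A (0.079, and 0.0047 with GC offsets) did not pass the test, although the libraries of neither pair overlapped.
Between the WT groups, EZH2 was higher on Tubastatin A by 0.66 on the log2 scale (SE 0.09, edgeR adjusted p = 9.3e-04). This call was lost when any library other than replicate 1 on PCI-34051 was left out (edgeR adjusted p = 0.0018 to 0.0100), and it was lost with GC offsets (0.47, edgeR adjusted p = 0.0044). Between 8CDm cells and WT cells on PCI-34051 the log2 difference was -0.41 (SE 0.09, edgeR adjusted p = 0.0035), past 0.001 only under alternatives that include GC offsets (-0.62, edgeR adjusted p = 1.2e-04), DESeq2, upper-quartile scaling and a stricter filter.

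EZH1 (ENSG00000108799, chromosome 17, 42700275 to 42745049), the other catalytic subunit, varied little. Its values ran from 32.5 to 61.2 CPM over all libraries. WT cells on Tubastatin A were lowest, at 32.5, 41.6 and 39.7 CPM, below every library of every other group. The other groups had means of 49.9 to 53.5 CPM and libraries from 43.6 to 61.2 CPM. None of the comparisons of EZH1 passed the false discovery rate of 0.001 with all libraries in the model, where WT cells on Tubastatin A against those on PCI-34051 gave a log2 difference of -0.47 (edgeR adjusted p = 0.041). With only the 6 WT libraries and their replicate numbers as a block, an analysis added after seeing the data, it was -0.49 and passed (edgeR adjusted p = 3.4e-04).
The EZH2 to EZH1 ratio, in CPM per kb, thus separated the groups. It was 1.56, 1.62 and 1.43 in 6CD2m cells, 1.19, 1.58 and 1.53 in 6CD1m cells and 2.00, 1.45 and 1.39 in WT cells on Tubastatin A. It was 0.54, 0.56 and 0.51 in 8CDm cells and 0.94, 0.67 and 0.62 in WT cells on PCI-34051. Per kb, EZH2 was above EZH1 in all 9 libraries on Tubastatin A and below it in all 6 on PCI-34051. The line, the inhibitor and its dose change together in this split outside the WT groups. Whether the ratio lies above 1 rests on the exon lengths used (4.522 kb for EZH2 and 6.988 kb for EZH1, all annotated exons joined). In CPM, EZH2 was below EZH1 in some libraries on Tubastatin A, such as 6CD1m replicate 1 (47.1 against 61.2 CPM) and 6CD2m replicate 3 (47.7 against 51.3 CPM). Only the shift of the ratio between groups is free of these lengths.

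SUZ12 (ENSG00000178691, chromosome 17, 31937018 to 32001045), the scaffold of the complex, and EED (ENSG00000074266, chromosome 11, 86244544 to 86278813), which binds the mark that PRC2 places, were the genes whose spread between groups shrank most with GC offsets. SUZ12 was at 51.9, 54.3 and 55.03 CPM in 8CDm cells, at 28.0, 36.1 and 42.5 CPM in 6CD1m cells and at 45.8, 25.4 and 32.9 CPM in WT cells on PCI-34051. The libraries within each of the last 2 groups spread widely, and these groups overlapped. The highest group mean of SUZ12 was 1.55 times the lowest, and 1.14 times with GC offsets. No comparison of SUZ12 passed 0.001 with or without them.
EED was at 11.7, 7.84 and 8.82 CPM in WT cells on PCI-34051, against 18.1, 17.3 and 17.7 CPM in 8CDm cells and 19.9, 18.2 and 18.9 CPM in 6CD2m cells. The libraries of WT cells on PCI-34051 lay below those of 6CD2m and 8CDm cells without overlap. Between 8CDm cells and WT cells on PCI-34051 the log2 difference was 0.90 (SE 0.21, edgeR adjusted p = 0.0035), and 0.43 with GC offsets (edgeR adjusted p = 0.0065). Against WT cells on PCI-34051 EED passed 0.001 with GC offsets in 6CD2m cells (0.56, edgeR adjusted p = 6.9e-04) but not without them (0.0013). With upper-quartile scaling it passed there as well (1.02, edgeR adjusted p = 3.7e-04). In 6CD1m cells it passed with GC offsets (0.64, edgeR adjusted p = 9.1e-04) but not without them (0.037). In these comparisons of 6CD2m and 6CD1m cells, the inhibitor and dose differ as well as the line and duration. Part of the SUZ12 reads may belong to SUZ12P1, a copy at 7.68 to 17.8 CPM, since 9 of the 15 SUZ12 counts were not whole numbers.

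UHRF1 (ENSG00000276043, chromosome 19, 4903080 to 4962154), which reads half-methylated DNA, showed the clearest difference among the DNA methylation genes. It was at 187, 197 and 163 CPM in 6CD1m cells and at 72.8, 80.3 and 76.4 CPM in 6CD2m cells, which carry a substitution in the other domain of the same enzyme and had the same treatment. In 8CDm cells it was at 62.5, 77.6 and 73.7 CPM. WT cells gave 142, 142 and 147 CPM on Tubastatin A and 109, 117 and 106 CPM on PCI-34051. 6CD2m and 8CDm cells overlapped with each other and lay below all other libraries.
The log2 difference of UHRF1 was -1.25 between 6CD2m and 6CD1m cells (SE 0.10, edgeR adjusted p = 2.2e-07) and -0.91 in 6CD2m against WT cells under Tubastatin A (SE 0.10, edgeR adjusted p = 4.5e-06). Both kept the call under all alternatives. 6CD2m and 8CDm cells overlapped and did not pass the test (edgeR adjusted p = 0.50). Against WT cells on PCI-34051 UHRF1 was lower in 6CD2m cells by -0.54 (edgeR adjusted p = 4.9e-04), a call lost when any library other than replicate 1 on PCI-34051 was left out (0.0016 to 0.0074) and with GC offsets (-0.23, edgeR adjusted p = 0.039). The inhibitor and dose differ in that pair too. Between 8CDm cells and WT cells on PCI-34051 the difference was -0.64 (SE 0.10, edgeR adjusted p = 1.5e-04). It lost the call without 8CDm replicate 1 (edgeR adjusted p = 0.0013), without replicate 2 on PCI-34051 (0.0011) and with GC offsets (-0.37, edgeR adjusted p = 0.0029). The neighbours 6CD1m and WT cells on Tubastatin A (edgeR adjusted p = 0.037) and the WT groups with each other (0.028) did not pass 0.001, although the latter did with GC offsets (0.53, edgeR adjusted p = 9.7e-04). Of the 15 UHRF1 counts 14 were not whole numbers, so some of its reads were shared with another locus.

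DNMT1 (ENSG00000130816, chromosome 19, 10133345 to 10231286), the maintenance methyltransferase, had the same order of group means as UHRF1 with a smaller spread. It was at 320, 333 and 310 CPM in 6CD1m cells, at 306, 286 and 311 CPM in WT cells on Tubastatin A and at 277, 257 and 243 CPM in WT cells on PCI-34051. 6CD2m cells gave 225, 248 and 228 CPM and 8CDm cells 193, 207 and 204 CPM. 6CD1m cells lay above 6CD2m and 8CDm cells without overlap, and no neighbouring groups in this order differed at 0.001.
Between 6CD2m and 6CD1m cells DNMT1 was lower by a log2 difference of -0.46 (SE 0.08, edgeR adjusted p = 4.3e-04), a call that was lost when any of the 6 libraries was left out (edgeR adjusted p = 0.0010 to 0.0099) and with GC offsets (-0.29, edgeR adjusted p = 0.0055). Between 6CD1m and 8CDm cells it was 0.67 (SE 0.08, edgeR adjusted p = 1.6e-05), kept when any library was left out and with GC offsets (0.55, edgeR adjusted p = 3.6e-05). DNMT1 shares 83 exonic bases with S1PR2, which reached at most 11.01 CPM.
The UHRF1 to DNMT1 ratio, in CPM per kb, was 1.11, 1.13 and 1.00 in 6CD1m cells, and it was 0.61, 0.62 and 0.64 in 6CD2m cells. 8CDm cells had 0.62, 0.72 and 0.69. WT cells had 0.88, 0.94 and 0.90 on Tubastatin A and 0.75, 0.87 and 0.83 on PCI-34051. The reader of half-methylated DNA thus varied more than the enzyme it brings there, and 6CD1m cells were above all other libraries.

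**Figure D2:**
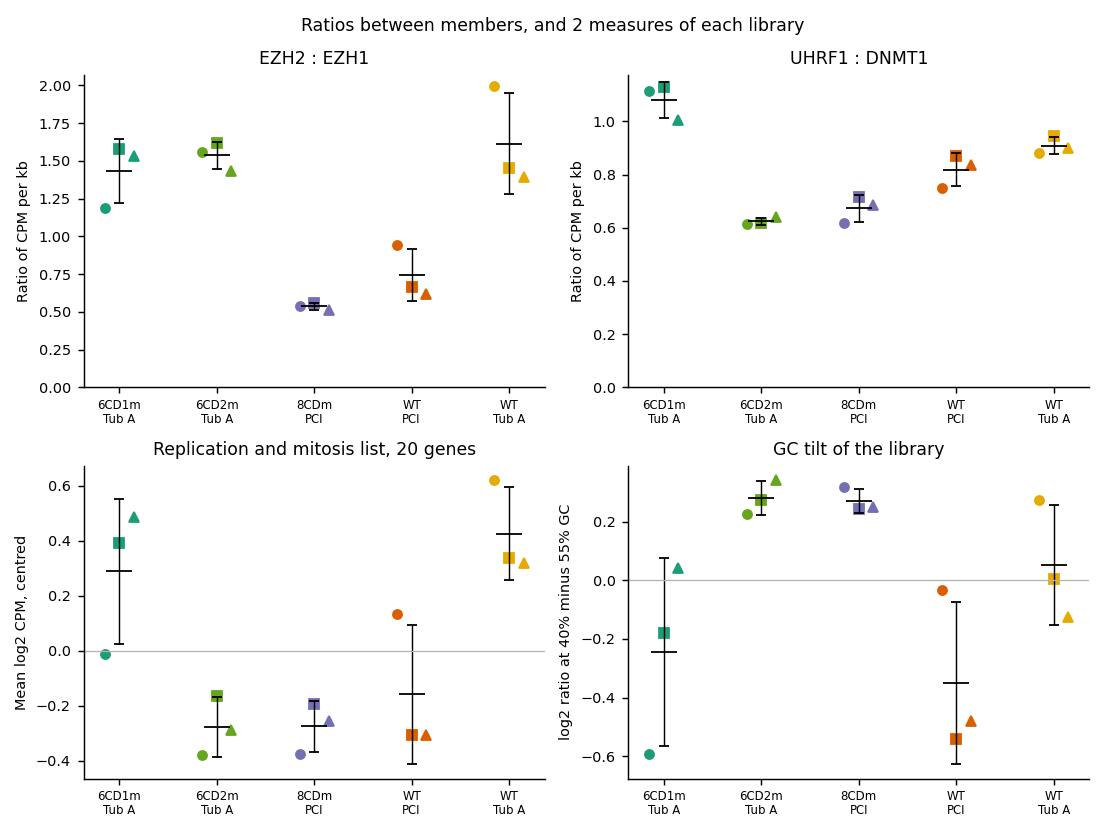
Top: the ratios EZH2 to EZH1 and UHRF1 to DNMT1, in CPM per kb, in each library, with black bars for mean ± SD (n = 3). Bottom: the mean centred log2 CPM of 20 replication and mitosis genes and the GC tilt of each library (log2 ratio at 40% minus 55% GC). The EZH2 to EZH1 ratio is 1.19 to 2.00 in the libraries on Tubastatin A and 0.51 to 0.94 in those on PCI-34051, and the GC tilt spans -0.59 to 0.04 within 6CD1m cells alone.

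HELLS (ENSG00000119969, chromosome 10, 94501434 to 94613905), a nucleosome remodeller needed for DNA methylation, was at 77.7, 94.96 and 90.6 CPM in 6CD1m cells and at 80.1, 77.7 and 81.5 CPM in 6CD2m cells. WT cells gave 80.4, 74.0 and 66.3 CPM on Tubastatin A and 47.9, 44.5 and 44.3 CPM on PCI-34051, and 8CDm cells 53.0, 51.1 and 51.1 CPM. As with EZH2, all libraries on Tubastatin A were above all on PCI-34051.
The log2 difference of HELLS was 0.62 between 6CD2m and 8CDm cells (SE 0.09, edgeR adjusted p = 1.2e-04) and 0.65 with GC offsets (edgeR adjusted p = 4.2e-05). The call was lost without 6CD2m replicate 3 or without 8CDm replicate 2 or 3 (edgeR adjusted p = 0.0012 to 0.0015). Between the WT groups it was 0.69 higher on Tubastatin A (SE 0.09, edgeR adjusted p = 7.3e-04), a call lost when any library other than replicate 1 on PCI-34051 was left out (edgeR adjusted p = 0.0014 to 0.0083) and with GC offsets (0.32, edgeR adjusted p = 0.039). Between 6CD2m and 6CD1m cells GC offsets moved it the other way, from -0.14 (edgeR adjusted p = 0.25) to -0.56 (edgeR adjusted p = 1.6e-04). In 8CDm cells against WT cells on PCI-34051 GC offsets turned its direction, from 0.18 (edgeR adjusted p = 0.14) to -0.36 (edgeR adjusted p = 0.0077). In 6CD2m cells, on Tubastatin A, against the same WT cells it was 0.81 (edgeR adjusted p = 9.8e-06), and 0.29 with GC offsets (0.019). Line, inhibitor, dose and duration all differ in that pair. HELLS has 37.6% GC, the lowest of the 9 genes.

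The de novo methyltransferase DNMT3A (ENSG00000119772, chromosome 2, 25227855 to 25342590) was ordered against the maintenance genes in part. It was at 24.2, 21.6 and 22.97 CPM in 6CD2m cells, at 40.2, 41.3 and 38.0 CPM in 8CDm cells and at 44.8, 35.4 and 32.1 CPM in 6CD1m cells. WT cells gave 37.6, 48.7 and 50.9 CPM on PCI-34051 and 23.1, 33.2 and 34.3 CPM on Tubastatin A. The libraries of 6CD2m cells lay below those of 6CD1m and 8CDm cells but overlapped with those of WT cells on Tubastatin A.
The log2 difference of DNMT3A between 6CD2m and 8CDm cells was -0.80 (SE 0.16, edgeR adjusted p = 0.0015), and it passed 0.001 with GC offsets (-0.76, edgeR adjusted p = 2.4e-04). Between 6CD2m and 6CD1m cells it was -0.71 (SE 0.16, edgeR adjusted p = 0.0029). Against WT cells on PCI-34051, where 14.6% of all genes passed, 6CD2m cells were lower by a log2 difference of -0.995 (SE 0.16, edgeR adjusted p = 1.8e-04). This call was kept without replicate 1 or 2 on PCI-34051 and lost when any of the other 4 libraries was left out (edgeR adjusted p = 0.0011 to 0.0016). Line, inhibitor, dose and duration all differ between these 2 groups.
DNMT3B (ENSG00000088305, chromosome 20, 32762385 to 32809356), the second de novo enzyme, was at 8.21 to 14.6 CPM over all libraries. Its group means ran from 9.43 ± 1.27 to 12.9 ± 1.94 CPM (SD, n = 3), neighbouring groups overlapped, and no comparison passed 0.001. The DNMT3A to DNMT3B ratio, in CPM per kb, was 0.72 to 0.96 in 6CD2m cells and 1.51 to 1.78 in 8CDm cells.

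The comparisons set cells with a substitution in a catalytic domain of KDAC6 or KDAC8 against WT cells given the inhibitor of the same enzyme for longer. For 6CD1m against WT cells under Tubastatin A none of the 9 genes passed the false discovery rate of 0.001, which 0.793% of all genes tested did, and the median log2 difference of the 9 was 0.25 (all genes -0.01). At an unadjusted p under 0.05 there were 5 of 9 by edgeR, against 32% of all genes. At the false discovery rate of 0.001 DESeq2 also called 0. For 6CD2m against WT cells under Tubastatin A 1 of 9 passed that rate by edgeR (UHRF1, lower), against 11.8% of all genes, with a median of -0.04 (all genes -0.01). Between 8CDm and WT cells on PCI-34051 it was again 1 of 9 (UHRF1, lower, or EZH2, lower, in its place with GC offsets), against 11% of all genes, with a median of 0.02 (all genes -0.04). These shares are near those of all genes. At a rate of 0.05 the counts were 1, 4 and 5 of 9, against 9.45%, 32.8% and 36.1% of all genes.
Between the 2 WT groups 2 of 9 passed (EZH2 and HELLS, higher on 1 μM Tubastatin A than on 5 μM PCI-34051), where 0.42% of all genes did, and the median was 0.37 (all genes 0.01). The libraries of these groups did not overlap for 8 of the 9 genes, all but SUZ12, against 25.9% of all genes, with EZH1 and DNMT3A lower on Tubastatin A and the others higher. Same-numbered libraries of the 2 WT groups deviated alike from their group means, although the labels give no pairing beyond the replicate numbers. At a rate of 0.05 it was 6 of 9 (9.48% of all genes), and with GC offsets at 0.001 it was 1 of 9 (UHRF1, 1.24% of all genes). With the numbers as a block in the model of all libraries 0 of 9 passed, and with the block and only these 6 libraries 4 of 9 did (EZH2, EZH1, HELLS and DNMT3A), against 11.7% of genes. For these groups, log2 differences across 13946 protein-coding genes ran with GC content (Spearman's rho -0.50, a description over genes that share libraries).
Between 6CD2m and 6CD1m cells 2 of 9 passed (UHRF1 and DNMT1, lower in 6CD2m cells), against 13.2% of all genes, with a median of -0.14 (all genes -0.05). With the block it was 1. Between 6CD2m and 8CDm cells 2 of 9 passed (EZH2 and HELLS, higher in 6CD2m cells), against 9.96%. Between 6CD1m and 8CDm cells 4 of 9 passed (EZH2, DNMT1, UHRF1 and HELLS, higher in 6CD1m cells), against 11.1%, with a median of 0.43 (all genes 0.05). The 3 mutant groups together against both WT groups gave UHRF1 alone (log2 difference -0.34, edgeR adjusted p = 7.2e-04), where 10.4% of all genes passed, and none of the 9 genes separated the 9 mutant from the 6 WT libraries, as 2.35% of all genes did. At 0.05 it was 5 of 9, against 30.4%. The UHRF1 call was lost in 13 of 15 analyses that left out a library (edgeR adjusted p = 0.0011 to 0.0036) and with the block (0.0013). With GC offsets UHRF1 was not called (-0.20, edgeR adjusted p = 0.0087) and EED was instead (0.37, edgeR adjusted p = 8.1e-04, against 0.53 and 0.0073 without offsets). UHRF1 means in the mutant groups ran from 71.3 CPM in 8CDm to 182 CPM in 6CD1m cells, on either side of both WT groups.
The difference from WT cells on the same inhibitor was also compared between 6CD2m and 8CDm cells, and 1 gene passed. Line, inhibitor, dose and duration cannot be told apart in this comparison. EZH2 was higher in 6CD2m than in WT cells on Tubastatin A and lower in 8CDm than in WT cells on PCI-34051, and the 2 log2 differences (0.35 and -0.41) differed by 0.76 (SE 0.13, edgeR adjusted p = 7.6e-04). This test was passed by 5.16% of all genes, and the call was lost with the block (edgeR adjusted p = 0.0017) and when any library other than replicate 1 of WT cells on Tubastatin A was left out (0.0015 to 0.0042).

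**Figure D3:**
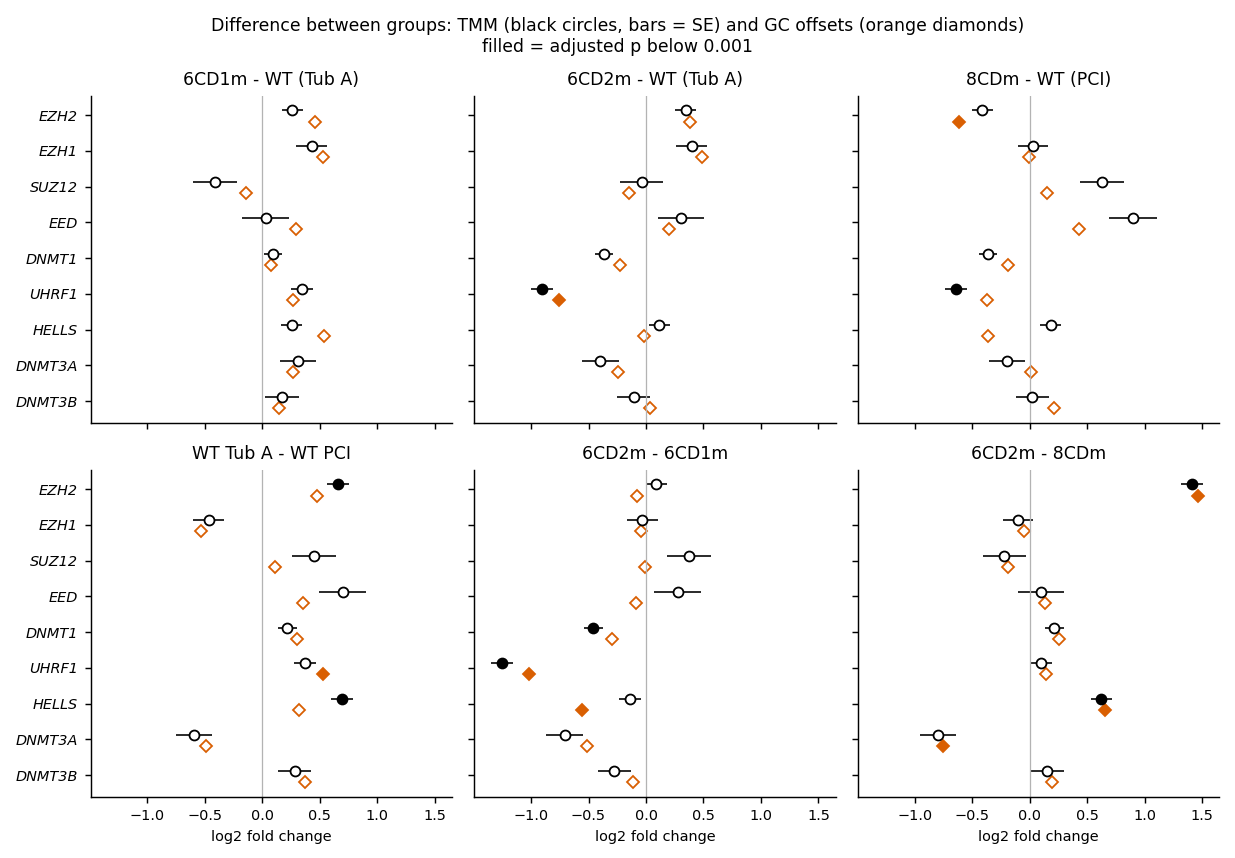
Log2 fold change (horizontal axis) of the 9 genes in 6 comparisons, as black circles with SE bars for TMM scaling and orange diamonds for GC offsets, filled where the adjusted p from edgeR's test is below 0.001. UHRF1 lies at -0.91 and -1.25 in 6CD2m cells against WT and 6CD1m cells and EZH2 at 1.41 against 8CDm cells, with filled symbols for both scalings, while HELLS between the WT groups moves from 0.69 to 0.32.

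The genes whose pattern over the 15 libraries was most like that of each member were found by the root-mean-square difference of centred log2 CPM. For UHRF1 they were CEP85, RAD54L and LIG1 (0.11, 0.13 and 0.14 log2 units, where UHRF1 itself deviated by 0.53 from its mean). RAD54L acts in recombination and LIG1 joins DNA at replication. For EZH2 they were OAS3, ARFGEF3 and FKBP5 (0.14, 0.16 and 0.17, where EZH2 deviated by 0.55), and for HELLS ARFGEF3, ATAD5 and ZGRF1 (0.15 to 0.17). For SUZ12 (0.07 to 0.08) they were AQR, ACAP2 and USP25, for EED EXOC6 and GXYLT1, and for EZH1 ACAD10, MRPS25 and C22orf29. PTRF, TMEM109 and EPB41L2 were nearest to DNMT1, RPL32P3, TP53I13 and ING5 to DNMT3A, and CCBL1, MARCHF9 and AC240274.1 to DNMT3B. These are among the 3 nearest of 2334 or 10733 genes each. The levels used here had no GC offsets, and the part of the GC tilt in these patterns, such as that of SUZ12, was not tested. ARFGEF3, FKBP5 and EPB41L2 lie on chromosome 6. There the median protein-coding gene differed by 0.43 between 6CD2m and 8CDm cells, and by -0.34 between 8CDm and WT cells on PCI-34051. The part of this shift in the patterns was not tested either.

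The other genes of these pathways were counted from lists chosen by function, but with earlier results of these data known. The counts are therefore no independent evidence, and they are to be read against the shares of all genes given above for each comparison. Of 20 genes of DNA replication and mitosis, 10 were lower in 6CD2m than in WT cells on Tubastatin A (median log2 difference -0.68), 8 lower in 6CD2m than in 6CD1m cells (median -0.72) and 7 higher in 6CD1m than in 8CDm cells (median 0.56), with 0 in the other direction. Between 8CDm and WT cells on PCI-34051 1 was lower (E2F1, median -0.15), and between the WT groups none passed (median 0.57, and 4 higher with GC offsets). With GC offsets the counts of 10, 8 and 7 became 9, 10 and 8, and 3 were lower in 8CDm than in WT cells. E2F1, a transcription factor of the replication programme, was at 47.4 ± 5.75 CPM (SD, n = 3) in 6CD1m cells, 42.7 ± 4.76 and 33.6 ± 1.83 CPM in WT cells on Tubastatin A and PCI-34051, 18.1 ± 1.12 CPM in 6CD2m cells and 17.6 ± 1.22 CPM in 8CDm cells, the order of group means that UHRF1 and DNMT1 had. BUB1, a mitotic checkpoint kinase, was lower in 6CD2m than in WT cells on Tubastatin A by a log2 difference of -1.61 (edgeR adjusted p = 1.2e-06). The mean centred log2 level of the list was -0.38 to -0.17 in 6CD2m and -0.38 to -0.20 in 8CDm cells, 0.32 to 0.62 in WT cells on Tubastatin A and -0.01 to 0.48 in 6CD1m cells. WT cells on PCI-34051 had 0.13, -0.31 and -0.31, so that 2 of their libraries were as low as those of 6CD2m and 8CDm cells. Its part in the differences of UHRF1, DNMT1, HELLS and EZH2 was not tested.
Of 10 tested cofactors of DNA methylation, 3 were lower in 6CD2m than in 6CD1m cells and in 6CD2m than in WT cells on Tubastatin A: CDCA7, which activates HELLS, its relative CDCA7L and UHRF2, the relative of UHRF1. CDCA7 was at 19.7, 19.3 and 19.97 CPM in 6CD2m cells and at 47.2, 41.2 and 47.4 CPM in 6CD1m cells, a log2 difference of -1.20 (SE 0.10, edgeR adjusted p = 4.6e-07). The list medians were near 0 (-0.13 and 0.00), and 0 of 10 passed between 8CDm and WT cells on PCI-34051, where 1 was lower with GC offsets.
Of 9 tested PRC2 partners and accessory subunits, 2 were lower in 6CD2m than in WT cells on Tubastatin A, PHF19 (54.7 ± 4.83 against 87.2 ± 3.55 CPM, log2 difference -0.67, edgeR adjusted p = 3.6e-05) and PHF1 (-0.73, edgeR adjusted p = 6.3e-04), both of which help to bring PRC2 to chromatin. With GC offsets 3 were lower. PHF19 was also lower in 8CDm than in WT cells on PCI-34051 (-0.75, edgeR adjusted p = 1.7e-05), where AEBP2 (0.87) and MTF2 (0.58) were higher (edgeR adjusted p = 7.9e-05 and 7.0e-04) but neither was with GC offsets (edgeR adjusted p = 0.0019 and 0.29). EZHIP, an inhibitor of PRC2 known from germ cells and some tumours, had at most 2 counts in any library and was not tested.
Of 18 PRC1 subunits, the complex that binds the PRC2 mark, 3 were lower in 6CD2m than in WT cells on Tubastatin A (CBX6, CBX8 and PHC2) and 2 in 8CDm than in WT cells on PCI-34051 (PHC2 and CBX6), with 0 higher and medians of -0.02 and -0.01. These counts are near the 11.8% and 11% of all genes that passed. With GC offsets 1 was also higher in each of the 2 comparisons. CBX6 was at 113 against 255 CPM in the first comparison, a log2 difference of -1.17 (edgeR adjusted p = 1.1e-06). Of 7 Polycomb antagonists, KMT2C, a histone H3 lysine 4 methyltransferase on chromosome 7 like EZH2, was at 279 ± 11.4 CPM in 6CD2m cells and 138 ± 9.14 CPM in 8CDm cells (log2 difference 1.01, edgeR adjusted p = 4.4e-07), and WT cells had 217 ± 8.01 and 218 ± 19.7 CPM.
Of 8 methyl-CpG readers, the proteins that bind methylated DNA, 3 were lower in 6CD2m than in WT cells on Tubastatin A (MBD1, MBD2 and ZBTB38) and 0 higher, with a median of -0.40 (all genes -0.01). With GC offsets 4 were lower and 0 higher. MBD1 was at 70.0 ± 5.14 against 165 ± 7.05 CPM, a log2 difference of -1.24 (edgeR adjusted p = 2.4e-07), and MBD2 was lower by -0.96 (edgeR adjusted p = 7.5e-06). Both lie on chromosome 18, where the median of 191 protein-coding genes differed by -0.79 between the same groups.
Germline genes known to be silenced by DNA methylation at their promoters were followed because they are a readout of that mark. Of 20 listed, 9 passed the filter on low counts, so the counts leave out the genes that were silent throughout. Expression in the libraries of 1 group is enough to pass, so a gene can enter through the group where it is higher. The set tested is therefore not independent of the differences counted. Against WT cells on Tubastatin A, 4 of the 9 were higher in 6CD2m cells and 1, CTAG2, lower (-0.68, edgeR adjusted p = 4.5e-05, and 0.0047 with GC offsets). MAGEC1 was at 29.2, 33.9 and 29.1 CPM in 6CD2m cells and at 0.11, 0.13 and 0.58 CPM in WT cells on Tubastatin A, and its log2 difference was 6.77 (SE 0.33, edgeR adjusted p = 1.5e-09). MAGEC2 was at 64.8, 79.5 and 70.0 CPM in 6CD2m cells, at 2.89 to 3.54 CPM in WT cells on Tubastatin A and at 0.28 to 0.70 CPM in 6CD1m cells. TEX19 was at 28.3 ± 1.69 CPM in 6CD2m cells, 10.2 ± 0.925 CPM in 6CD1m cells and 2.48 ± 0.859 to 5.00 ± 0.228 CPM in the other groups. 6CD2m cells also exceeded 6CD1m and 8CDm cells for these 3 genes and PAGE1 (4 of 9 in both, 0 lower). 8CDm cells had 1.68 ± 0.428 CPM of MAGEC1 and 5.98 ± 0.734 CPM of MAGEC2, above WT cells on PCI-34051 by log2 differences of 1.98 and 1.26 (edgeR adjusted p = 6.1e-04 and 7.0e-04). In that comparison CTAG2 was lower (-0.83, edgeR adjusted p = 9.0e-06, and 0.026 with GC offsets), and the list median was 0.14. MAGE genes are a family of close copies, so their counts are uncertain to the extent that reads were shared. DNA methylation and histone marks were not measured in these samples.

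**Figure D4:**
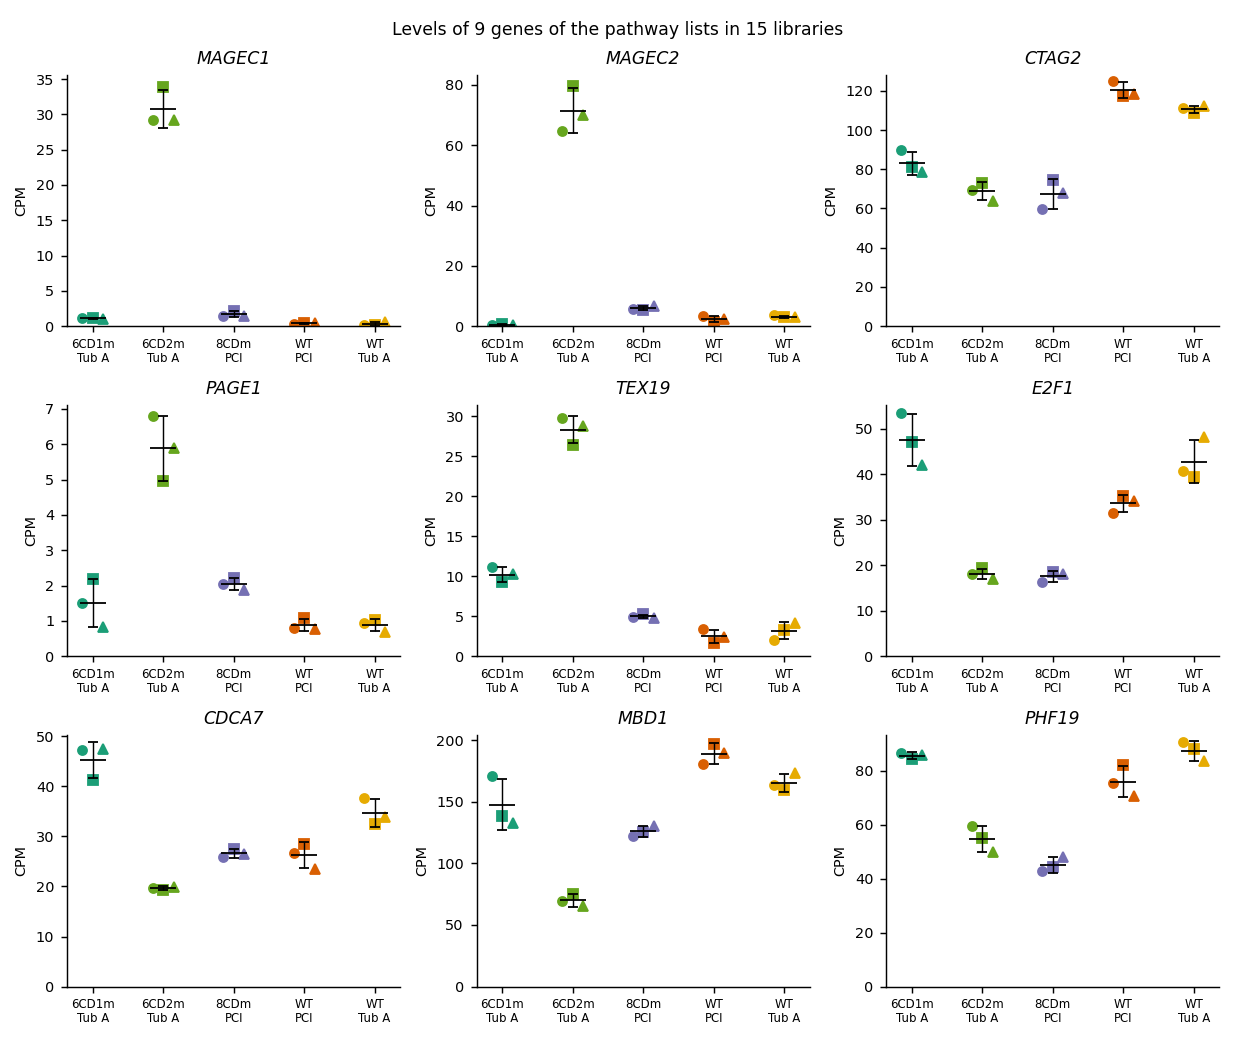
CPM (vertical axis, from 0) of 9 genes from the pathway lists in each library of the 5 groups, with replicates 1, 2 and 3 as circle, square and triangle and black bars for mean ± SD (n = 3). MAGEC1 and MAGEC2 reach 29.1 to 33.9 and 64.8 to 79.5 CPM in 6CD2m cells, far above every other library, and E2F1 stays at or below 19.3 CPM in 6CD2m and 8CDm cells.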

How the data were processed

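Total RNA depleted of rRNA was sequenced from 15 libraries (5 groups, 3 replicates each). The authors deposited expected counts, estimated numbers of reads per gene without normalization. The submitters' processing notes name Trimmomatic 0.39, Bowtie2 2.4.5, RSEM 1.3.3 and the build GRCh38. Fractional values made up 21.8% of the nonzero ones, and every value was rounded to a whole number. No row lacked a gene identifier (0 rows, share 0), and 0 further columns of samples were left unused. The labels gave each library's group and replicate number.

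Counts were analysed with R 4.3.3, edgeR 4.0.16, limma 3.58.1 and Python 3.11.15. After edgeR's filter on low counts and TMM scaling, all libraries entered 1 model with a mean per group, and groups were compared by the quasi-likelihood test of edgeR, adjusted after Benjamini and Hochberg over all 19535 genes at a false discovery rate of 0.001, the study's threshold. Biological variation common to all genes was 16.4%. The script was tested on counts simulated for WT cells on Tubastatin A against those on PCI-34051. Of 200 changed genes it recovered 0 at a 1.5-fold change, 54 at 2-fold and 122 at 4-fold, with 0 false calls. A difference that did not pass 0.001 therefore does not show that the groups were equal. Positions, exon lengths and GC content came from GENCODE 29 on GRCh38 (57055 genes matched, GC for 99.2% of those tested), and promoter sequences from RefSeq on GRCh38.p14. EPOP and EZHIP were matched by identifier. GC offsets subtract, per library, a lowess fit of its log2 deviation from the mean library on GC content.

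The members and lists were chosen with earlier results of these data known. Text names all members, per list and comparison up to 3 genes past the threshold with the largest log2 difference and an average log2 CPM of at least 1 (or the 1 with the smallest p), and the 3 genes nearest in pattern, of which 1 is not reported here. Genes outside this rule, such as EZHIP, PAGE1, CTAG2, CDKN1C and S1PR2, were named after their values were seen. Same-numbered libraries of the 2 WT groups deviated alike from their group means (correlation 0.72, 0.40 and 0.38), more than those of any other compared groups. The labels give replicate numbers but no pairing. The GC tilt was highest in replicate 1 of both WT groups (0.27 on Tubastatin A, -0.03 on PCI-34051). A shared tilt and a true pairing cannot be told apart. Alternatives were scaling by RLE or the upper quartile, TMM leaving out mitochondrial and small RNA genes, DESeq2 1.42.0, 2 other filters, only the libraries compared, the block, GC offsets, thinning to 10932482 counts, a rate of 0.05 and leaving out each library. Fits with only the WT libraries and the block, and leaving out libraries for the difference of effects, were added after seeing the data.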

Additional observations from a re-analysis of the deposited data

Results flagged for a closer look

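The difference between the effects of the 6CD2m and 8CDm lines, each against WT cells on the same inhibitor, was itself tested for all genes, and among the 9 genes EZH2 passed it. Its log2 difference was higher by 0.76 in 6CD2m than in 8CDm cells (edgeR adjusted p = 7.6e-04). All 3 libraries of 6CD2m cells (47.7 to 50.6 CPM) were above those of WT cells on Tubastatin A (35.7 to 42.0 CPM), and all 3 of 8CDm cells (17.8 to 20.05 CPM) were below those of WT cells on PCI-34051 (23.2 to 26.6 CPM). The test was passed by 5.16% of all genes. The call was lost with the replicate block (edgeR adjusted p = 0.0017) and in 11 of 12 analyses that left out a library (0.0015 to 0.0042). With GC offsets the difference was 1.00 (edgeR adjusted p = 3.7e-05). Line, inhibitor, dose and duration cannot be told apart in it.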

How the results depend on the processing

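Among log2 differences of the 9 genes with an adjusted p under 0.05 in any comparison, or called under an alternative, none turned its direction (828 values under the alternatives run); differences outside these did, such as HELLS in 8CDm against WT cells, from 0.18 to -0.36 with GC offsets. Of these 689 stayed on their side of the 0.001 threshold, 101 lost a call and 38 gained one. The number of the 9 genes past it moved as follows. At a false discovery rate of 0.05 it was 1, 4 and 5 for 6CD1m, 6CD2m and 8CDm against WT cells on their inhibitor, 6 between the WT groups and 5 for all mutants against WT. Upper-quartile scaling gave 2 for 6CD2m and 3 for 8CDm against WT, and moved the median of all genes by 0.11 for 6CD1m against WT and 0.13 for the difference of effects. DESeq2 gave 3 and 4 for these 2 comparisons and 3 for all mutants. Without the filter it was 2 for 8CDm against WT, 1 between the WT groups, 2 for all mutants and 0 for the difference of effects, and with at least 10 counts in every library 3 for 8CDm against WT. With only the libraries compared it was 0 for 8CDm against WT, 0 between the WT groups, 1 for 6CD2m against 6CD1m and 2 for 6CD1m against 8CDm. After thinning it was 1 between the WT groups, 1 for 6CD2m against 6CD1m and 0 for the difference of effects.

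The replicate block gave 0 between the WT groups, 1 for 6CD2m against 6CD1m, 0 for all mutants and 0 for the difference of effects, and changed no other count by over 1.5 times. GC offsets gave 1 between the WT groups, and with the block 0 there and 0 for all mutants. With only the WT libraries the block gave 4 (EZH2, EZH1, HELLS and DNMT3A), and with GC offsets 4 with UHRF1 in place of HELLS. For all mutants GC offsets kept the count at 1 but with EED in place of UHRF1. They also put EZH2 in place of UHRF1 for 8CDm against WT, and HELLS in place of DNMT1 for 6CD2m against 6CD1m. For 6CD2m against 8CDm they added DNMT3A. Leaving out a library gave 0 to 0 for 6CD1m and 1 to 1 for 6CD2m against WT, 0 to 1 for 8CDm against WT, 0 to 2 between the WT groups, 1 to 1 for 6CD2m against 6CD1m, 1 to 2 for 6CD2m against 8CDm, 4 to 4 for 6CD1m against 8CDm, 0 to 3 for all mutants and 0 to 1 for the difference of effects. The causes of these shifts were not tested, and the cause was not tested for the HELLS reversal. Each of the 9 genes had at least 124 counts in each library, and 3 libraries a group limit which small differences can pass.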

Other observations

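Of 10 tested developmental genes, mostly transcription factors, known as Polycomb targets in embryonic stem cells (20 listed), 4 were lower in 8CDm than in WT cells on PCI-34051 and 0 higher, with a median log2 difference of -1.27 (all genes -0.04). With GC offsets 3 were lower and 0 higher. GATA6, a factor of endoderm development, was at 4.62 to 5.64 CPM in 8CDm cells and at 26.9 to 30.5 CPM in WT cells on PCI-34051 (log2 difference -2.44, edgeR adjusted p = 6.0e-08). TBX3 was at 29.2 ± 2.22 against 69.6 ± 0.904 CPM (SD, n = 3) in the same groups (-1.25, edgeR adjusted p = 1.9e-07). CDKN1C, an inhibitor of the cell cycle and not a transcription factor, is on the same list and was among the 4, at 0.257 against 1.29 CPM (-2.29, edgeR adjusted p = 1.4e-04). In 6CD2m cells 3 were lower than in WT cells on Tubastatin A, with a list median of 0.16 (2 lower and 1 higher with GC offsets). Both counts stand beside 11% and 11.8% of all genes. Among the 3 was GATA6 (6.42 ± 0.317 against 14.4 ± 1.31 CPM), which lies on chromosome 18. Members that were silent in all groups are not in these counts, and a gene can enter through the group where it is higher. EZH2 was lowest in 8CDm cells and highest in 6CD2m cells, and its relation to these genes was not tested.

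Of 9 genes of DNA demethylation, 1 was higher and 1 lower in 8CDm than in WT cells on PCI-34051 (2 higher and 1 lower with GC offsets). IDH2, a mitochondrial enzyme of the metabolite that TET enzymes need, was at 6.02 against 14.0 CPM (log2 difference -1.22, edgeR adjusted p = 1.4e-04, and 0.0022 with GC offsets). GADD45A was at 64.5 against 44.2 CPM (0.54, edgeR adjusted p = 3.3e-04). TET1, which oxidizes methylated DNA, was higher in 6CD2m than in 8CDm cells (9.97 against 5.66 CPM, edgeR adjusted p = 8.3e-04, and 0.0012 with GC offsets).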
